A study of Homo sapiens with 8 samples.

Results

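Solute carriers are the membrane proteins that move amino acids, sugars, ions, metals and metabolites across the plasma membrane and the membranes of organelles. Their genes are named SLC, then a family number, then a member. Rows of a table of translation efficiency were taken as members when the gene name began with SLC and a number, with SLC3A2, SLC7A5, SLC7A11 and SLC35A4 left out. The rule uses names and no measured value. It found 200 of the 12109 transcripts in the authors' deposited table, each with a gene name of its own. Of these, 190 encode transporters of 45 families, and 10 carry an SLC name without encoding one, such as pseudogenes and adaptor proteins.

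Cultured hepatic stellate cells of human origin, which make the scar matrix of the liver when activated, were measured. Their labels call them a cell line and give a wild-type genotype. One set had received silencing RNA against LARP6, an RNA-binding protein known for binding collagen messages, and the other a control silencing RNA. Each condition had 2 libraries of ribosome profiling, which sequences the RNA that ribosomes shield from nuclease, and 2 of RNA-seq, 8 libraries in 4 groups in all. The comparison asks how the loss of LARP6 alters the reading of messages by ribosomes. All cells grew in medium with serum, and the sources used here give neither the source of the cells nor the degree of LARP6 loss. The row of LARP6 has a log2 change of 0.07 (adjusted p = 0.981, per the authors' deposited table), but a ratio of footprints to RNA cannot check the knockdown.

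The values are the authors' own comparison. The log2 efficiency of a transcript is its footprints relative to its RNA, scaled so that the typical transcript sits near 0. The log2 change is knockdown minus control. Values of single libraries are not among them, so neither a replicate spread nor a standard error nor a depth can be given, and each call rests on the authors' p-value. Whether the replicates were grown separately is not stated in the labels, so those p-values may measure technical spread. Control levels were derived here by subtracting the change of the second of 2 deposited methods from the knockdown level. This assumes that the knockdown level is on the scale of that method, which was not checked. Where the final change is that of the first method, the levels need not differ by exactly that change. Of 10 stellate cell markers, 7 have a row, against 1 of 8 hepatocyte markers, 1 of 3 endothelial, 2 of 3 leukocyte and 3 of 5 biliary markers. DES, LRAT and RGS5 are the stellate markers without a row, and the hepatocyte transporters SLC10A1 and SLC2A2 have none either.

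The classes compared follow the membranes in which the carriers work. Families of the plasma membrane take up nutrients and exchange ions with the medium. The SLC25 carriers, built from repeats of the same fold, sit mostly in the inner mitochondrial membrane and swap nucleotides, phosphate and organic acids. The SLC35 carriers bring nucleotide sugars and the sulfate donor into the Golgi and the endoplasmic reticulum, where glycoproteins and proteoglycans are made. Activated stellate cells secrete both kinds of matrix molecule, and they draw on amino acids, above all glutamine, and export lactate.

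The 4 transporters that passed the threshold start translation in the sequences that follow, shown with both paralogs of SLC25A6, with SLC6A17, which lay just outside the threshold, and with the zinc exporter SLC30A1. Each stretch reads 5′ to 3′ and holds 12 bases before the start codon and 12 after it, with the start codon in capitals. The letters come from the GENCODE release 29 transcript (GRCh38) that the row names.
SLC38A2: ccagtgcttagcATGaagaaggccgaa
SLC16A1: tctacacttaaaATGccaccagcagtt
SLC20A1: ctactccagagaATGgcaacgctgatt
SLC25A6: cgccctgccaccATGacggaacaggcc
SLC25A5: tcctctttcaacATGacagatgccgct
SLC25A4: cgagctgtcaccATGggtgatcacgct
SLC6A17: caggtggcatcaATGccgaagaacagc
SLC30A1: gcagccgcagccATGgggtgttggggt

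Few solute carriers changed. Translation efficiency fell for the neutral amino acid importer SLC38A2 and the lactate transporter SLC16A1, and rose for the phosphate importer SLC20A1 and the mitochondrial ADP/ATP carrier SLC25A6. Of the 200 members, 4 passed an adjusted p of 0.05 (2%) by the authors' deposited table, beside 2.20% of all transcripts. Of the members 2 rose, beside 1.07% of all transcripts of the authors' deposited table, and 2 fell, beside 1.12%. An unadjusted p under 0.05 was reached by 20 members (10%), all of them transporters, beside 10.3% of all transcripts of the authors' deposited table. Of those 20, 10 lay higher (5.46% of all transcripts) and 10 lower (4.83%). The share of solute carriers that changed was therefore close to that of the table as a whole. The median log2 change was 0.028 over the 200 members and 0.015 over all transcripts of the authors' deposited table. A change of at least 2-fold was listed for 19 members, of which 6 had an unadjusted p under 0.05 and 0 passed the adjusted threshold. Over all 12109 transcripts of the authors' deposited table it was listed for 1282, of which 436 had an unadjusted p under 0.05 and 110 passed.

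SLC38A2 (SNAT2) imports small neutral amino acids together with sodium and is known to be induced when amino acids run short. Its transcript lies on chromosome 12 (46358189 to 46372867, minus strand, GRCh38). Its log2 efficiency in the authors' deposited table is −0.14 in LARP6 knockdown cells, against a derived 0.40 in control cells. It fell by 0.54 on the log2 scale, or 1.45-fold (adjusted p = 0.000183, per the authors' deposited table). A message translated slightly above the typical one in control cells thus lay slightly below it after knockdown. SLC38A2 has the smallest p of all members, and it was the one that also passed at 0.01, per the authors' deposited table. Of the 7 measured SLC38 members, 6 lay below 0 and 1 above, with a median change of −0.153, but the other 6 have adjusted p-values of 0.702 or more in the authors' deposited table.

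SLC16A1 (MCT1) carries lactate, pyruvate and ketone bodies together with protons (chromosome 1, 112911847 to 112956353, minus strand). Its log2 efficiency is −0.16 in LARP6 knockdown cells in the authors' deposited table and a derived 0.60 in control cells. It fell by 0.77 on the log2 scale, or 1.7-fold (adjusted p = 0.0314, per the authors' deposited table). SLC16A3 (MCT4), the isoform known for lactate export from glycolytic cells, had a change of 0.45 with p = 0.0515 before adjustment and 0.495 after it in the authors' deposited table. The family did not share a direction, since 5 of its 8 members lay above 0 and 3 below. BSG, the chaperone that brings MCT1 and MCT4 to the cell surface, had a change of −0.03 (adjusted p = 0.978, per the authors' deposited table).

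SLC20A1 (PiT1) imports phosphate together with sodium (chromosome 2, 112645857 to 112663827, plus strand). Its log2 efficiency is 0.85 in LARP6 knockdown cells in the authors' deposited table, against a derived 0.16 in control cells. It rose by 0.70 on the log2 scale, or 1.62-fold (adjusted p = 0.0134, per the authors' deposited table). Its 5′ untranslated region of 539 bases holds 4 upstream ATG triplets, and those of SLC25A6, SLC16A1 and SLC38A2 hold 4, 2 and 1. The related phosphate importer SLC20A2 had a change of 0.21 (adjusted p = 0.946, per the authors' deposited table). XPR1, which exports phosphate and has no SLC symbol in these rows, had a change of −0.84 (adjusted p = 0.236, per the authors' deposited table). The families SLC13, SLC20 and SLC26 were put together after their values had been seen, by family number and not by the substrate of each member. Of their 6 members 5 lay above 0, beside 50.8% of all transcripts of the authors' deposited table, with a median of 0.703.

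SLC25A6 (ANT3) is 1 of 3 measured ADP/ATP carriers, which exchange mitochondrial ATP for cytosolic ADP (chromosome X, 1386152 to 1392724, minus strand, in the region shared with chromosome Y). Its log2 efficiency is −1.13 in LARP6 knockdown cells in the authors' deposited table and a derived −1.91 in control cells. It rose by 0.78 on the log2 scale, or 1.72-fold (adjusted p = 0.0222, per the authors' deposited table), and stayed well below the typical transcript in both conditions. SLC25A5 (ANT2), the form common in dividing cells, had a log2 efficiency of −3.27 in knockdown cells in the authors' deposited table and a derived −3.17 in control cells, with a change of −0.10 (adjusted p = 0.987). SLC25A4 (ANT1), the form of heart and muscle, had 0.34 in knockdown cells and a derived 0.26 in control cells, with a change of 0.08 (adjusted p = 0.975, per the authors' deposited table). The 3 genes were thus read at very different apparent efficiencies, and no direction was shared. No test of the difference between them could be made.

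The coding sequences of the 3 ADP/ATP carriers are alike. SLC25A6 is identical to SLC25A5 at 78.7% of coding positions and to SLC25A4 at 77.9%, and SLC25A5 to SLC25A4 at 77.2%. Footprints are short, so reads can be shared between genes. The longest aligned run of identical bases is 29 for SLC25A6 and SLC25A5, 20 for SLC25A6 and SLC25A4, and 14 for SLC25A5 and SLC25A4. SLC25A4 thus has no aligned stretch of 28 bases in common with either paralog. Which other genes hold the shared stretches counted next was not examined. For SLC25A6, 7.27% of the coding 28-mers, stretches of about footprint length, also occur in a transcript of another gene, against 43% for SLC25A5 and 0% for SLC25A4. The copy of SLC25A6 on chromosome Y was not counted as another gene, so its share leaves that copy out. The pseudogene row SLC25A6P2 has a log2 efficiency of 4.87 in knockdown cells in the authors' deposited table and a derived 2.51 in control cells, with a change of 2.34 (adjusted p = 0.853). The sources used here do not say how reads that fit several places were counted. The values of SLC25A6 and SLC25A5 are therefore uncertain, and the part of shared reads in them was not tested.

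**Figure D1:**
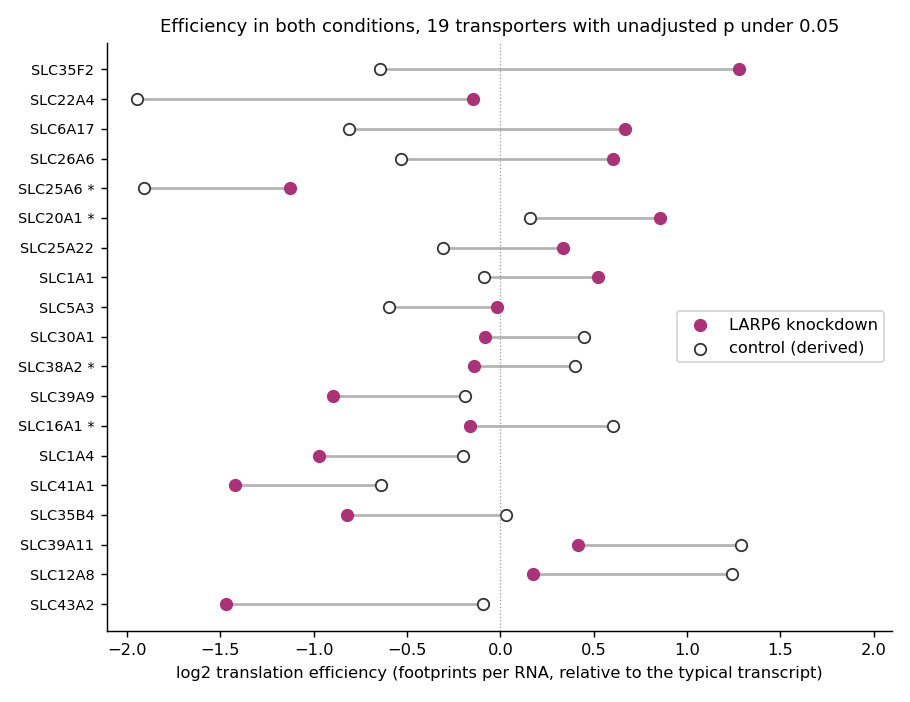
Log2 translation efficiency (horizontal axis) of 19 of the 20 transporters with an unadjusted p under 0.05, in LARP6 knockdown cells (filled, from the authors' deposited table) and in control cells (open, derived), ordered from the highest to the lowest change. An asterisk marks the 4 that passed an adjusted p of 0.05, and SLC25A6 and SLC22A4 have the lowest control levels, −1.91 and −1.94.

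SLC6A17, a transporter of neutral amino acids into vesicles known from neurons and counted here with its plasma membrane family, lay just outside the threshold. It has a log2 change of 1.48 (p = 0.00301, adjusted p = 0.105, per the authors' deposited table), with 0.67 in LARP6 knockdown cells and a derived −0.81 in control cells. With the first deposited method alone it would pass (adjusted p = 0.00971, computed here over all transcripts of the authors' deposited table). SLC16A1 lay just inside, with an adjusted p of 0.0314. The other plasma membrane carriers with a large change and an unadjusted p under 0.05 went both ways, and none passed after adjustment. The ergothioneine and carnitine transporter SLC22A4 had a change of 1.80 (adjusted p = 0.448) and the anion exchanger SLC26A6 one of 1.14 (adjusted p = 0.382, per the authors' deposited table). At the other end, SLC43A2, a carrier of large neutral amino acids, had −1.37 (adjusted p = 0.336) and SLC12A8 −1.06 (adjusted p = 0.403, per the authors' deposited table). The zinc transporter SLC39A11, an organelle carrier when genes are placed singly but also counted here with its plasma membrane family, had −0.87 (adjusted p = 0.417, per the authors' deposited table). The glutamate importer SLC1A1 had 0.61 (adjusted p = 0.132) and its relative for serine and alanine SLC1A4 had −0.77 (adjusted p = 0.251, per the authors' deposited table).

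Other listed carriers of the plasma membrane did not pass the threshold. SLC2A1 (GLUT1), the main glucose importer of many cultured cells, had a change of −0.32 (adjusted p = 0.824, per the authors' deposited table). SLC1A5 (ASCT2), which imports glutamine, had 0.05 (adjusted p = 0.976), and SLC26A2, which imports the sulfate used for proteoglycans, −0.05 (adjusted p = 0.990, per the authors' deposited table). The ion transporter SLC12A2 (NKCC1) had −0.20 (adjusted p = 0.969, per the authors' deposited table), and the choline transporter SLC44A2 had −0.39 (adjusted p = 0.694). Without a standard error, the size of change that could have been missed in these rows cannot be given.

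Among families of amino acid carriers, the 20 members of SLC1, SLC7, SLC36, SLC38 and SLC43 were split, with 10 above 0 and 10 below. Their median change was −0.008 in the authors' deposited table. Of these 20, 1 fell (5%, beside 1.12% of all transcripts) and 4 had an unadjusted p under 0.05 (20%, beside 10.3%). Members were taken by family number, whatever the substrate of each. SLC6, which includes SLC6A15 and SLC6A17, was counted apart, with 2 of its 5 members above 0 and 2 below in the authors' deposited table. The members left out by name differ among themselves. SLC3A2, the heavy chain of the amino acid exchangers, rose by 0.50 on the log2 scale (adjusted p = 0.00115, per the authors' deposited table). Its partner SLC7A5 had −0.06 (adjusted p = 0.976) and the cystine importer SLC7A11 −0.79 (adjusted p = 0.273, per the authors' deposited table). ATF4, a transcription factor known to induce many amino acid carriers, SLC38A2 among them, fell by a log2 of 1.73 (adjusted p = 2.05e-14, per the authors' deposited table). Whether it bears on the carriers was not tested.

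The classes had different medians, and their differences were not tested because transcripts of the same libraries are not replicates. For the 109 plasma membrane transporters the median change was 0.000, with quartiles of −0.275 and 0.415, and 54 lay above 0 and 50 below in the authors' deposited table, the rest being listed at exactly 0. For the 34 SLC25 carriers the median was 0.195, with quartiles of −0.060 and 0.313, and 23 lay above 0 and 11 below. For the 21 SLC35 carriers the median was 0.081, with quartiles of 0.012 and 0.224, and 16 lay above 0 and 5 below. The 26 members of other organelle families had a median of −0.130, with quartiles of −0.514 and −0.013, and 6 lay above 0 and 20 below. Classes go by family number, and with a list of single genes placed apart from their families, the other organelles held 47 members with a median of −0.050, 18 above 0 and 29 below. Over all transcripts the quartiles were −0.316 and 0.336, with 6146 above 0 and 5730 below in the authors' deposited table. The plasma membrane families thus spread about as widely as the whole table, whereas the middle of the SLC35 carriers spanned 0.212 on the log2 scale, against 0.652 for all transcripts.

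**Figure D2:**
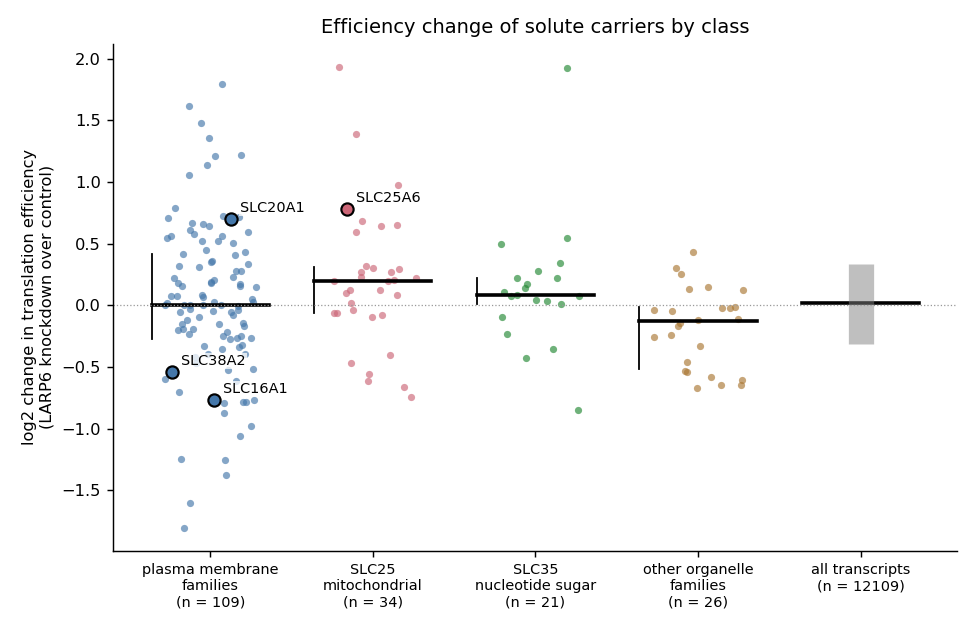
Log2 change in translation efficiency (vertical axis, LARP6 knockdown over control) of the transporters of each class, 1 point per transcript, from the authors' deposited table. Horizontal bars are medians and thin vertical lines, or the grey box for all 12109 transcripts, span the quartiles; ringed points passed an adjusted p of 0.05, and 3 of these 4 are plasma membrane carriers.

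Counts of calls by class were small. Of the plasma membrane transporters, 1 rose and 2 fell (2.75% of 109) by the authors' deposited table, and 15 had an unadjusted p under 0.05 (13.8%), beside 2.20% called and 10.3% with such a p among all transcripts. Of the SLC25 carriers 1 rose (2.94% of 34), and 2 had an unadjusted p under 0.05 (5.88%), SLC25A6 and the glutamate carrier SLC25A22 with a change of 0.64 (adjusted p = 0.450, per the authors' deposited table). Of the SLC35 carriers 0 were called, with each of the 2 deposited methods alone as well, and 2 had an unadjusted p under 0.05 in the authors' deposited table. Of the other organelle families 0 were called, again with either method alone, and 1 had an unadjusted p under 0.05, the zinc exporter SLC30A1. The shares of the classes were not compared by a test.

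Changes of mitochondrial carriers ran from −0.74 to 1.93, but their quartiles lay 0.373 apart, against 0.652 for all transcripts of the authors' deposited table. The phosphate carrier SLC25A3 had a change of 0.10 (adjusted p = 0.937), the citrate carrier SLC25A1 one of 0.12 (adjusted p = 0.972) and the ATP-magnesium carrier SLC25A24 one of 0.20 (adjusted p = 0.939, per the authors' deposited table). The largest changes of the family came with large p-values. SLC25A15, the ornithine carrier of the urea cycle, had 1.93 (adjusted p = 0.649) and SLC25A35 had 1.38 (adjusted p = 0.837, per the authors' deposited table). At the low end was SLC25A42, a coenzyme A carrier, with −0.74 (adjusted p = 0.934, per the authors' deposited table).

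Most SLC35 carriers, taken by family number and not by the place or substrate of each, lay near 0. SLC35A1, which brings in the donor of sialic acid, had a change of −0.09 (adjusted p = 0.984, per the authors' deposited table). SLC35B2, which brings in the sulfate donor for proteoglycans, had 0.28 (adjusted p = 0.687), and SLC35D1, whose nucleotide sugars go into chondroitin sulfate, had 0.55 (adjusted p = 0.865, per the authors' deposited table). Only SLC35F2 and SLC35B4 reached an unadjusted p under 0.05 among the 21 SLC35 carriers. SLC35F2 had a change of 1.92 (adjusted p = 0.381), with 1.28 in LARP6 knockdown cells in the authors' deposited table and a derived −0.65 in control cells. SLC35B4, which carries UDP-xylose and UDP-N-acetylglucosamine, had −0.85 (adjusted p = 0.455, per the authors' deposited table).

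Zinc carriers lay below 0 more often than above. SLC30 proteins move zinc out of the cytosol and SLC39 proteins move it in. All 6 SLC30 members lay below 0, with a median change of −0.497, and of the 11 SLC39 members 8 lay below, 2 at exactly 0 and 1 above, with a median of −0.247 in the authors' deposited table. None of the 17 was called, also with either method alone, and 3 had an unadjusted p under 0.05, beside 2.20% and 10.3% of all transcripts. SLC30A1 (ZnT1), counted with its family among the organelles although it exports zinc across the plasma membrane, had a change of −0.53 (p = 0.00875, adjusted p = 0.209), with −0.08 in LARP6 knockdown cells in the authors' deposited table and a derived 0.45 in control cells. SLC39A9 had −0.71 (adjusted p = 0.366) and SLC39A7, which releases zinc from the endoplasmic reticulum, −0.01 (adjusted p = 0.993, per the authors' deposited table). The member above 0 was SLC39A14 (ZIP14), which imports zinc, manganese and iron, with 0.28 (adjusted p = 0.569, per the authors' deposited table). Families were put together by substrate after their values had been seen, so the shared sign is a description.

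**Figure D3:**
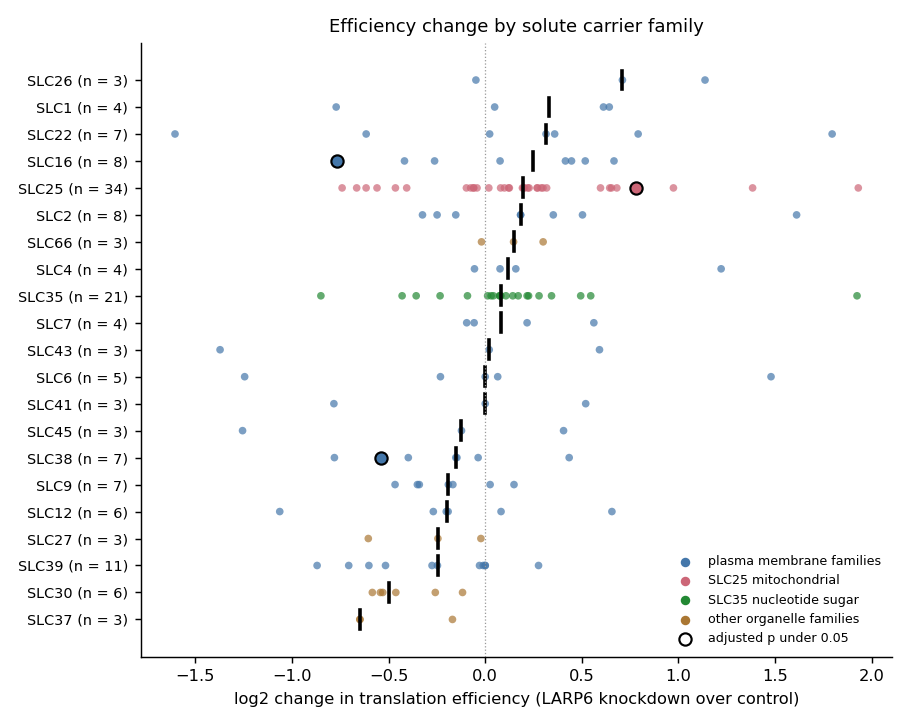
Log2 change in translation efficiency (horizontal axis, LARP6 knockdown over control) of each transporter in the families with at least 3 measured members, 1 point per transcript, from the authors' deposited table, ordered by the family median (black bar). Ringed points passed an adjusted p of 0.05 (SLC20A1 is not drawn, as its family has 2 members); all 6 SLC30 points lie left of 0, whereas the families of the 3 ringed points lie on both sides of it.

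In the remaining families described here 0 members were called, also with either method alone, beside 2.20% of all transcripts. An unadjusted p under 0.05 was reached by 0, beside 10.3%. These families are small, so the lack of calls says little about them. The 3 SLC37 sugar phosphate carriers had a median of −0.648 and the 3 SLC27 fatty acid transporters one of −0.245, with every member below 0 in the authors' deposited table. Both measured SLC29 nucleoside transporters lay above 0, SLC29A1 at 0.56 (adjusted p = 0.710) and SLC29A3 at 0.72 (adjusted p = 0.729, per the authors' deposited table). The 8 SLC2 hexose transporters had a median of 0.183, with 5 above 0 and 3 below, and the 7 SLC9 sodium-proton exchangers a median of −0.191, with 2 above and 5 below. The acetyl-CoA carrier SLC33A1 had −0.67 (adjusted p = 0.634), the iron exporter SLC40A1 1.36 (adjusted p = 0.893) and the copper importer SLC31A1 0.72 (adjusted p = 0.907, per the authors' deposited table). The other measured member of the copper family, SLC31A2, lay below 0, at −0.22 (adjusted p = 0.930, per the authors' deposited table).

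Efficiency levels spanned a wide range in the plasma membrane, SLC25 and SLC35 classes, and a narrower one in the other organelle families. The median log2 efficiency of plasma membrane transporters was 0.082 in LARP6 knockdown cells in the authors' deposited table and a derived −0.090 in control cells. For SLC25 carriers it was −0.031 in knockdown cells and 0.015 in control cells, and for SLC35 carriers 0.412 in knockdown cells and 0.339 in control cells. For the other organelle families it was 0.236 in knockdown cells, against 0.498 in control cells, and over all transcripts 0.008 against 0.002. A difference between class medians is not the median change of the members. The SLC25 median level was lower in knockdown than in control cells, although the median change of these carriers was 0.195. Control levels of the plasma membrane carriers ran from −3.28 for SLC31A1 to 2.80 for SLC6A15, an importer of branched-chain amino acids. Those of SLC25 ran from −3.55 for the glycine carrier SLC25A38 to 1.30 for the S-adenosylmethionine carrier SLC25A26. SLC35 control levels ran from −2.17 for SLC35E2B to 1.66 for SLC35A1, and those of other organelle families from −0.78 for the vesicular nucleotide carrier SLC17A9 to 1.58 for the lysosomal SLC49A4.

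Several of the lowest levels belonged to transcripts that share sequence with other genes. Over 10% of the coding 28-mers were shared in 18 of 187 coding transporters (9.63%), against 2072 of 10554 coding rows in all (19.6%). The derived median control level of those 18 transporters was −0.623, against 0.111 for the other 169, and over all coding rows it was −0.439 against 0.025. SLC25A38 shares 31.9% of its 28-mers, SLC31A1 25.4%, SLC25A5 43%, SLC2A3 54.1% and the creatine transporter SLC6A8, at a derived control level of −3.18, shares 41%. The relation did not hold throughout. The iron exporter SLC40A1 and SLC25A23 have derived control levels of −2.77 each and SLC25A37 one of −2.12, and they share 0%. SLC35A1 shares 95.9% and has a derived control level of 1.66, and SLC33A1 shares 98.8% with a level of 0.57. These are descriptions across transcripts of the same libraries.

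**Figure D4:**
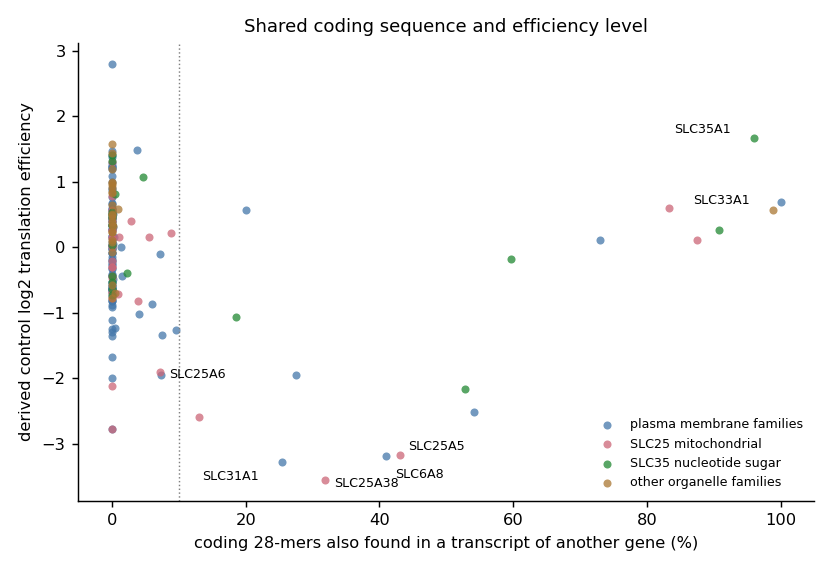
Derived control log2 translation efficiency (vertical axis) of the 187 coding transporters against the share of their coding 28-mers also found in a transcript of another gene (horizontal axis, percent), coloured by class. The dotted line is at 10%; several carriers between 25% and 55% lie below −2, whereas SLC35A1 and SLC33A1, near the right edge, lie above 0.

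Features of the transcripts differed by class in ways the naming rule did not use. The median coding length was 1695 bases for plasma membrane carriers, 949.5 for SLC25, 1095 for SLC35 and 1408.5 for other organelle families, beside 1386 for all coding rows. The median GC content of the coding sequence was 55.2%, 53.4%, 47.9% and 51.8% in the same order of classes, beside 52.3%. An ATG upstream of the start codon occurs in 56 of 106 plasma membrane transcripts (52.8%), 14 of 34 of SLC25 (41.2%), 14 of 21 of SLC35 (66.7%) and 11 of 26 of the other organelle families (42.3%), beside 48.9% of all coding rows. The 95 transporters with such an ATG had a median change of −0.019 and the 92 without it 0.110, beside 0.000 and 0.040 over all coding rows of the authors' deposited table. In SLC25 the order was reversed, with 0.244 with such an ATG and 0.110 without it. Plasma membrane, SLC35 and other organelle carriers each had the lower median with such an ATG. Across the 187 coding transporters, the derived control level and the coding length had a Spearman correlation of −0.09, beside −0.39 over the 10554 coding rows. With coding GC content the correlations were −0.32 and −0.10.

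The start sequences printed above show how such contexts vary. A purine 3 bases before the start codon, the feature known to favour initiation most, occurs in 154 of 192 coding members (80.2%), beside 84.9% of all coding rows, and in 24 of 34 SLC25 carriers (70.6%). A G right after the start codon, at position 4, occurs in 120 of 192 members (62.5%), beside 53.6% of all coding rows. All 4 called transcripts have the purine, those that fell and those that rose, and of the 4 SLC20A1 alone has the G.

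Transporters under other symbols and the partners of solute carriers were examined as lists. Of 28 listed transporters without an SLC symbol, 20 had a row, 9 above 0 and 10 below, with a median change of −0.026, and 0 were called in the authors' deposited table. Of these 20, 2 had an unadjusted p under 0.05, beside 10.3% of all transcripts. They were the magnesium transporter and oligosaccharyltransferase subunit MAGT1 with −0.56 (adjusted p = 0.268, per the authors' deposited table) and XPR1. Of 22 listed partners and regulators, 15 had a row, 7 above 0 and 8 below. Of these 15, 1 fell, beside 1.12% of all transcripts, and 4 had an unadjusted p under 0.05, beside 10.3%. The 1 that fell was TXNIP, an arrestin-like protein known to bring about the internalisation of GLUT1. It fell by a log2 of 1.26 (adjusted p = 0.000397, per the authors' deposited table). Its log2 efficiency was −0.80 in LARP6 knockdown cells and a derived 0.46 in control cells.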

How the data were processed

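Ribosome profiling and RNA-seq of human hepatic stellate cells gave 8 libraries in 4 groups of 2. Among tools and builds, cutadapt and Bowtie, hg38 and GRCh38 appear in the submitters' processing notes with no version. The sources used here do not state the annotation, the read counting or the test program. Per the file headers, the authors deposited log2 changes in translation efficiency from 2 methods and a final one, a knockdown log2 efficiency, and the p-values. In all 12109 rows the authors' final p-value is the larger one of both methods (relative tolerance 1e-09), and Benjamini-Hochberg adjustment of it gave the deposited adjusted p-value to within 6.3e-15. No counts are in the table, so the planned count tests were not run, and depth and precision are unknown. No other per-sample columns were used.

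Rows were matched to GENCODE release 29 transcripts by the last 6 digits of the identifier and the symbol. Of 12109 rows, 11582 matched and 527 did not; of the 200 members, 197 matched, all but SLC10A3, SLC7A7 and SLC8B1. Lengths, GC content, start contexts and shared 28-mers came from these transcripts (Python 3.11.15, pandas 2.3.3, numpy 2.4.6), and the code was tested on simulated data. Classes follow family numbers. Hydropathy and the carrier signature were planned but not computed.

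The members, classes and lists were chosen with earlier results of these data known. Named were the called members, up to 3 highest and 3 lowest changes with an unadjusted p under 0.05 in each class, the highest and lowest control levels of each class, the rows beside the threshold, called members of the lists, and 24 listed genes, all 24 of them present; a few genes taken by this rule are not reported here. Members named outside this rule, and the groups of families by substrate, were chosen after their values were seen. Alternatives tried were other thresholds, each method alone, protein-coding rows alone, gene-level locations, another centre and rows with shared 28-mers left out.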

Additional observations from a re-analysis of the deposited data

How the results depend on the processing

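No paired analysis was possible because values of single libraries were not at hand, so the replicate block and the leave-one-out fits were not run either. The 4 solute carriers called in the authors' deposited table were also the 4 called at an adjusted p of 0.1, with method 2 alone and among protein-coding rows alone. Leaving out rows with over 10% shared 28-mers, an alternative chosen after seeing the data, also gave 4, but removed none of the 4 (SLC25A6 shares 7.27%), so it does not test them. At an adjusted p of 0.01 the count was 1 (0 higher, 1 lower, SLC38A2), and with a log2 change of at least 1 it was 0 (0 higher, 0 lower), since a stricter threshold can only remove calls. Method 1 alone gave 6 calls, 4 of them higher, adding SLC1A1 and SLC6A17, and under it SLC6A17 has a change of 1.46 with an adjusted p of 0.00971. The final p is the larger of both methods' values, so neither method alone is stricter. With a list of single genes placed apart from their families, the median control log2 efficiency of SLC25 carriers was −0.108, against 0.015; 2 members leave the class. Class medians of the change moved by less than 0.1 on the log2 scale under each alternative run, one of which, keeping rows that encode no transporter, was also chosen after seeing the data, and 0 results reversed. The members' 2 estimates differ by at most 0.176 on the log2 scale. Depth is unknown, so which members were too sparse to be called cannot be said.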

Other observations

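Rows with an SLC name that encode no transporter were 10, and 0 of them were called in the authors' deposited table (lowest adjusted p = 0.798), beside 2.20% of all transcripts. An unadjusted p under 0.05 was reached by 0, beside 10.3%, and 10 rows are too few to read these counts as a result. The adaptor proteins SLC9A3R1 and SLC9A3R2, which anchor membrane proteins to the cytoskeleton, had changes of −0.41 (adjusted p = 0.937) and 0.06 (adjusted p = 0.978) in the authors' deposited table. Pseudogenes are among these rows, and 4 of them are named after a measured gene. Each stood at a higher level than the gene it is named after. SLC31A1P1 has a log2 efficiency of 2.01 in LARP6 knockdown cells in the authors' deposited table and a derived 1.62 in control cells, against −2.56 and −3.28 for the copper importer SLC31A1. SLC25A38P1 has −1.05 in knockdown cells and 0.83 in control cells, against −2.58 and −3.55 for SLC25A38. SLC25A6P2 has 4.87 in knockdown cells and 2.51 in control cells, against −1.13 and −1.91 for SLC25A6, and SLC9A7P1 has 0.86 and 1.40, against −1.73 and −1.27 for SLC9A7. These levels are described and not tested, and the sources used here do not say how reads shared by a gene and its pseudogene were assigned.

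Exactly 0 is listed as the final log2 change of 5 transporters in the authors' deposited table, SLC23A2, SLC39A3, SLC39A4, SLC41A2 and SLC6A6. They count neither as above nor as below 0.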
